A study of Mus musculus with 15 samples.

Results

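The interleukin-1 (IL-1) family receptor genes described here are Il18r1, Il18rap, Il1rl1, Il1r1, Il1r2 and Il1rap. They were found by symbol among the 55421 genes counted in each library, and all 6 were found and passed the filter on low counts in every comparison. The 6 genes were chosen by their symbols on earlier results of these same libraries, and no threshold was recorded for the choice. The fold changes and p-values below therefore describe these libraries and are not independent evidence. The libraries were made from mRNA of sorted CD4+ T cells, taken from the spleen or the mesenteric lymph nodes (mLN) 6 weeks after naive donor T cells had been injected into Rag2-/- mice, which lack T and B cells of their own and develop colitis after the transfer. Mice were used at 6 to 8 weeks of age. All donor cells were C57BL/6 and homozygous for a floxed allele of Prkaa1, which encodes the α1 catalytic subunit (AMPKα1) of the energy sensor AMPK. WT cells carried no Cre, and KO cells carried CD4-Cre, which acts in the whole αβ T cell lineage from the thymus on. The 15 libraries comprised 4 WT and 4 KO libraries from spleen, 3 WT libraries from mLN (replicates 1, 2 and 4) and 4 KO libraries from mLN. The labels do not tie replicates to single mice, so p-values measure the spread between these libraries only.

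Reads counted on genes ranged from 9363940 to 11283439 per library, and levels are given in CPM, counts scaled to the total of these reads. Prkaa1 itself had 46.3 to 60.9 CPM in the WT and 18.4 to 32.2 CPM in the KO libraries, and no KO library reached a WT library. The 10 CD4 T cell markers (Cd3d, Cd4, Trac and others) all had reads in every library and came to 7903 to 10540 CPM together. The 5 B cell markers came to at most 8.32 CPM, and the 2 CD8 markers to at most 11.6 CPM except in KO mLN, where they came to 18.9 to 28.2 CPM. In bulk RNA, fewer cells that express a gene and less RNA of it per cell cannot be told apart.

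IL-1 family cytokines act through paired receptor chains. A ligand-binding chain takes up the cytokine first, an accessory chain then joins, and the intracellular TIR domains of both recruit MyD88 and the IRAK kinases, which leads to NF-kB activation. Il18r1 encodes the IL-18 binding chain and Il18rap its accessory chain, a pair best known from Th1 cells and natural killer cells, where IL-18 together with IL-12 drives interferon-γ production. Il1rl1 encodes ST2, the receptor of the alarmin IL-33, which is found on Th2 cells, on regulatory T cells of tissues and on mast cells. Il1r1 encodes the signalling receptor of IL-1α and IL-1β and is known from Th17 cells, whose differentiation IL-1 promotes. Il1r2 encodes a decoy that binds IL-1 without a signalling domain and is known from neutrophils and activated regulatory T cells. Il1rap encodes the accessory chain shared by the IL-1, IL-33 and IL-36 receptors.

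On GRCm38, 5 of the 6 genes lie in a single cluster of 478 kb on chromosome 1, all on the + strand. In order they are Il1r2 (chr1:40074079-40125231), Il1r1 (chr1:40225080-40317257), Il1rl1 (chr1:40429570-40465415), Il18r1 (chr1:40465552-40500854) and Il18rap (chr1:40515362-40551705). Only 136 bases separate the annotated end of Il1rl1 from the start of Il18r1. Il1rap lies apart (chr16:26581704-26730117). Il1rap shares 552 exon bases with the antisense gene Gm20319, which had 190 reads over all 15 libraries, and the counts carry no strand information that would separate the 2 genes. The other 5 share no exon base with another gene, although Il1r1 and Il1r2 each contain an annotated gene in their introns.

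The 3 neighbouring genes Il1rl1, Il18r1 and Il18rap had the lowest KO to WT ratios of the 6 in spleen, and the bases before the first RefSeq start site of each (build GRCm38.p6, + strand, 5′ to 3′) are shown for that reason. A window of 250 bases was taken and shortened for Il18r1 to the 136 bases after the last exon of Il1rl1 (Il1rl1 at chr1:40429320-40429569, Il18r1 at chr1:40465416-40465551, Il18rap at chr1:40515112-40515361). Capitals mark the only searched motif that occurred in them, GATA (NGATAA).
Il1rl1: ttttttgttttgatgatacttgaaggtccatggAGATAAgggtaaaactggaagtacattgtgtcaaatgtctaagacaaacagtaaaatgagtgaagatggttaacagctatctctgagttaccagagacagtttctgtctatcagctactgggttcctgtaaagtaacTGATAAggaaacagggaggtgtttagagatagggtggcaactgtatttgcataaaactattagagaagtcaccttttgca
Il18r1: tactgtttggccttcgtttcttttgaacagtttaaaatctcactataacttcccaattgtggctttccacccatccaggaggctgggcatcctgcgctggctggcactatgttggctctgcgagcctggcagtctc
Il18rap: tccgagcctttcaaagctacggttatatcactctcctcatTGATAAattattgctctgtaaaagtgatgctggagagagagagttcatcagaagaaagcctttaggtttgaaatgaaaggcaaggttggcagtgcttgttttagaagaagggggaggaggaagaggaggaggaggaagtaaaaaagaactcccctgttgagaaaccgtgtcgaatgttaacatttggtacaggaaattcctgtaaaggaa
The Il1rl1 window held the GATA letters at 2 places, 217 and 80 bases before the start. In Il18rap they occurred once, 210 bases before the start. Among 32851 RefSeq promoters, 22.5% of windows of 250 bases and 12% of windows of 136 bases held these letters on either strand. AP-1 (TGANTCA), T-box (TCACACC), STAT (TTCNNNGAA) and NF-kB (GGGNNTTCC) letters did not occur in the 3 windows on either strand; 6.75%, 3.33%, 7.02% and 4.98% of the 250-base windows of all promoters held them. Further RefSeq starts were not shown; before the third start of Il18r1 the STAT letters occurred at 2 places, and before the second of Il1rl1 the GATA letters at 1. These are matches of letters and not binding sites.

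Levels differed widely between the receptor genes. Per kb of exon, the IL-18 receptor chains were the most abundant in WT spleen, with 69.4 ± 15.9 CPM per kb for Il18rap and 63.4 ± 6.27 for Il18r1 (SD, n = 4). The libraries of these 2 genes overlapped. Il1r2 followed with 16.8 ± 2.87 CPM per kb, below every library of both. Il1rl1 (9.85 ± 3.32) and Il1r1 (7.11 ± 3.93) overlapped with each other, and Il1rap was the least abundant at 2.04 ± 0.284 CPM per kb. The mean per length of this accessory chain, shared by IL-1 and IL-33 receptors, was below that of both binding chains in every group, but in KO spleen and KO mLN its libraries overlapped with those of Il1rl1. The IL-18 chains stood close to each other, with a per-length ratio of Il18r1 to Il18rap between 0.687 and 1.68 over the 15 libraries. In KO mLN the order changed, since Il1r2 reached 60.8 ± 7.9 CPM per kb (SD, n = 4) and stood above Il18rap (40.2 ± 16.5) and Il18r1 (37.1 ± 9.76). The Il1r2 libraries overlapped with those of Il18rap but not with those of Il18r1. Per length, the decoy receptor exceeded the signalling receptor Il1r1 in every library, by a ratio of 1.21 to 6.45 in WT spleen, 1.78 to 4.93 in KO spleen, 3.64 to 8.81 in WT mLN and 8.06 to 12.6 in KO mLN. This order rests on lengths over all annotated exons, 1908 bases for Il1r2 and 6363 for Il1r1. In plain CPM, Il1r1 was the higher in some spleen libraries, such as WT replicate 4 (74.2 against 26.9 CPM) and KO replicate 2 (41.8 against 22.3 CPM).

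**Figure D1:**
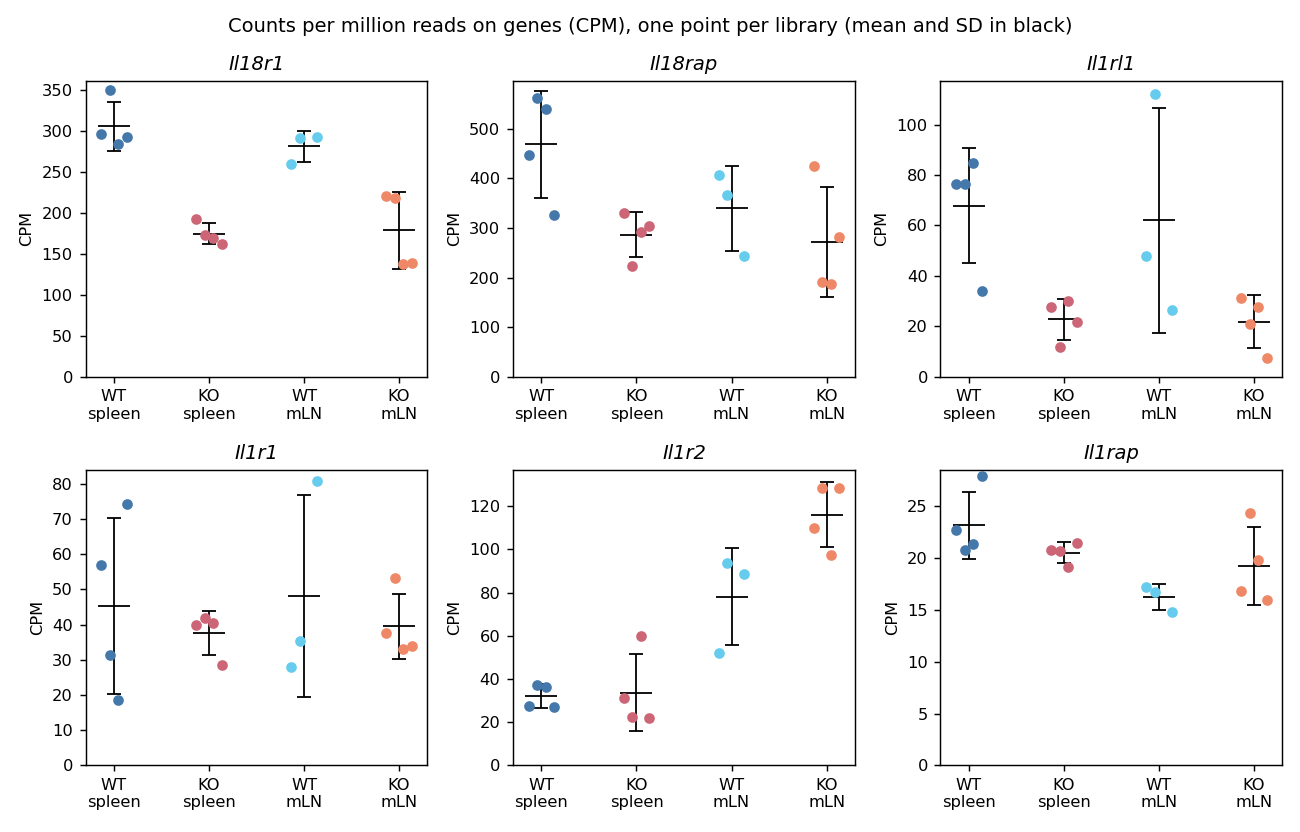
Levels in CPM (linear axes from 0) of the 6 receptor genes, with a point for each of the 15 libraries and the mean and SD of each group in black. Il18r1 lies lower in every KO than in every WT library of its organ, Il1rl1 does so in spleen, and Il1r2 lies higher in every mLN than in every spleen library of WT (from 52.2 CPM) and of KO (from 97.5 CPM).

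The comparison of KO with WT cells asks which receptor genes are expressed differently in cells without AMPKα1. The IL-18 binding chain and the IL-33 receptor were lower in KO spleen. Il18r1 stood at 174 ± 12.8 CPM in KO against 306 ± 30.2 CPM in WT (SD, n = 4 each), and Il1rl1 at 22.7 ± 8.17 against 67.9 ± 22.9 CPM. Of the 6 genes, 2 passed an edgeR adjusted p of 0.05 in spleen, both lower in KO, beside 1.3% of the 14254 genes tested. By edgeR none passed in mLN, beside 0.641% of 14359 genes. An unadjusted p under 0.05 was reached there by 3 of the 6, beside 2253 of all genes tested, and DESeq2 called 2 of the 6. With no contrast recorded for the choice of the genes, nothing is read from these counts.

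Il18r1 had 296, 350, 284 and 292 CPM in the WT spleen libraries. In KO spleen it had 192, 173, 169 and 162 CPM. The highest KO library thus lay well below the lowest WT library. The log2 fold change was −0.79 (SE 0.0768, 95% interval −0.96 to −0.62; edgeR's quasi-likelihood test, adjusted p = 0.00245). Il18r1 was past the threshold in each of the 8 fits that left out a library. NK cells, which also carry the IL-18 receptor, were traced by 4 markers (Ncr1, Klrb1c, Klra8 and Klre1), whose sum was 6.64 to 13.9 CPM in WT and 6.12 to 19.5 CPM in KO spleen, and 8.69 to 14.1 CPM in WT and 5.17 to 16.0 CPM in KO mLN. Klra8 had no or almost no reads in any group (at most 0.626 CPM), and edgeR called none of the 3 tested. Within groups, Il18r1 had an r of 0.66 with this sum and of 0.73 with that of the mast cell and basophil markers given below (deviations of 15 libraries). Their part in the Il18r1 difference was not tested. In mLN, WT libraries had 259.9, 291 and 293 CPM and KO libraries 221, 218, 138 and 138 CPM. All KO libraries again lay below all WT libraries, but the KO libraries formed a higher and a lower pair. The log2 fold change in mLN was −0.66 (SE 0.175, 95% interval −1.05 to −0.28), and the edgeR adjusted p of 0.12 missed the threshold, whereas DESeq2 gave an adjusted p of 0.00469. Every KO library was lower than every WT library for 6.31% of all genes tested in spleen and for 6.94% in mLN.

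Il18rap, the accessory chain, had 447, 562, 539 and 326 CPM in WT spleen. In KO spleen it had 329.5, 222, 292 and 303 CPM. The groups overlapped through WT replicate 4, the lowest WT library, which lay just under KO replicate 1. The log2 fold change was −0.69 (SE 0.175, 95% interval −1.08 to −0.31; edgeR adjusted p = 0.0735). Without WT replicate 4 it was −0.84 with an adjusted p of 0.0322, and with DESeq2 on all libraries the adjusted p was 0.00423. In mLN, Il18rap had 408, 366 and 244 CPM in WT and 425, 191, 188 and 282 CPM in KO. Here the highest value of all was a KO library, and the log2 fold change of −0.33 (95% interval −0.93 to 0.28) had an edgeR adjusted p of 0.622.

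Il1rl1 had 76.3, 76.6, 84.6 and 34.1 CPM in WT spleen and 27.5, 11.7, 30.1 and 21.5 CPM in KO spleen. The groups did not overlap, although WT replicate 4 lay far from the other WT libraries and close to the highest KO library. The log2 fold change was −1.57 (SE 0.324, 95% interval −2.29 to −0.85), the largest among the 6 genes in size, with an edgeR adjusted p of 0.0485 just under the threshold. It passed in only 1 of the 8 fits that left out a library, the fit without WT replicate 4 (adjusted p = 0.022), and over all 8 fits the edgeR adjusted p ran up to 0.131 while the log2 fold change kept between −1.80 and −1.34. In mLN, WT libraries had 47.7, 112 and 26.4 CPM and KO libraries 31.2, 20.8, 27.5 and 7.31 CPM. WT replicate 4 fell within the range of KO, so the groups overlapped. The log2 fold change of −1.52 (SE 0.488, 95% interval −2.59 to −0.44) was near that in spleen, with an edgeR adjusted p of 0.181. Without WT mLN replicate 2 it was −0.79.

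Mast cells and basophils, which express ST2, were traced by 6 markers (Cpa3, Ms4a2, Fcer1a, Mcpt8, Kit and Gata2). Their summed level was 20.6 to 56.1 CPM in WT spleen and 27.1 to 36.9 CPM in KO spleen, 6.58 to 11.3 CPM in WT mLN and 4.26 to 10.5 CPM in KO mLN. In mLN, 4 or 5 of the 6 markers had at most 3 reads in each library, with Kit as the most abundant. Il1rl1 had means of 62.1 CPM in WT mLN (26.4 to 112 CPM) and 21.7 CPM in KO mLN (7.31 to 31.2 CPM). None of the 6 markers passed the edgeR test between KO and WT in spleen, where their median log2 fold change was −0.51. The part of mast cells and basophils in the Il1rl1 levels of either organ, or in the difference between genotypes, was not tested. Foxp3, the defining factor of regulatory T cells, had 15.2 ± 5.03 CPM in KO and 28.9 ± 10.7 CPM in WT spleen (SD, n = 4 each; log2 fold change −0.91, edgeR adjusted p = 0.109, past the threshold with DESeq2), and 24.9 ± 14.6 against 71.3 ± 38.6 CPM in mLN (n = 4 and 3; −1.52, adjusted p = 0.165). Not all regulatory T cell genes moved with Foxp3. KO was the lower for 4 of the 7 such genes tested in spleen and for 5 of the 8 in mLN. Klrg1 (edgeR log2 fold changes 0.60 in spleen and 0.67 in mLN) and Batf (0.16 and 0.23) were higher in KO, though edgeR called neither. Ikzf2 had 0.05 and −0.02. The part of regulatory T cells in the Il1rl1 difference was likewise not tested.

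The IL-1 receptors Il1r1 and Il1r2 were not called by edgeR in either organ. Il1r1 had 56.8, 31.3, 18.7 and 74.2 CPM in WT spleen, a spread that enclosed all 4 KO spleen libraries (28.4 to 41.8 CPM). In mLN it had 27.9, 35.4 and 80.9 CPM in WT and 33.2 to 53.2 CPM in KO, with the same overlap. The log2 fold changes were −0.25 in spleen (95% interval −0.99 to 0.50) and −0.29 in mLN (−0.99 to 0.41) and the intervals reached nearly 1 log2 unit below 0. Leaving out WT replicate 4 turned both signs, to 0.09 in spleen and 0.31 in mLN. Il1r2, the decoy, had 27.6, 37.3, 36.1 and 26.9 CPM in WT spleen and 31.0, 22.3, 59.7 and 21.9 CPM in KO spleen, which overlapped widely. In mLN it had 52.2, 93.5 and 88.4 CPM in WT and 109.9, 128, 97.5 and 128 CPM in KO. There all KO libraries lay above all WT libraries, opposite in direction to Il18r1, Il18rap and Il1rl1. The share of all genes with every KO library higher was not counted. The log2 fold change of Il1r2 was 0.56 (SE 0.181, 95% interval 0.16 to 0.96; edgeR adjusted p = 0.181, DESeq2 adjusted p = 0.0328). Il1rap kept to 19.1 to 27.9 CPM in all 8 spleen libraries and 14.8 to 24.3 CPM in all 7 mLN libraries, and its log2 fold changes were −0.16 (95% interval −0.40 to 0.08) in spleen and 0.23 (−0.18 to 0.65) in mLN.

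**Figure D2:**
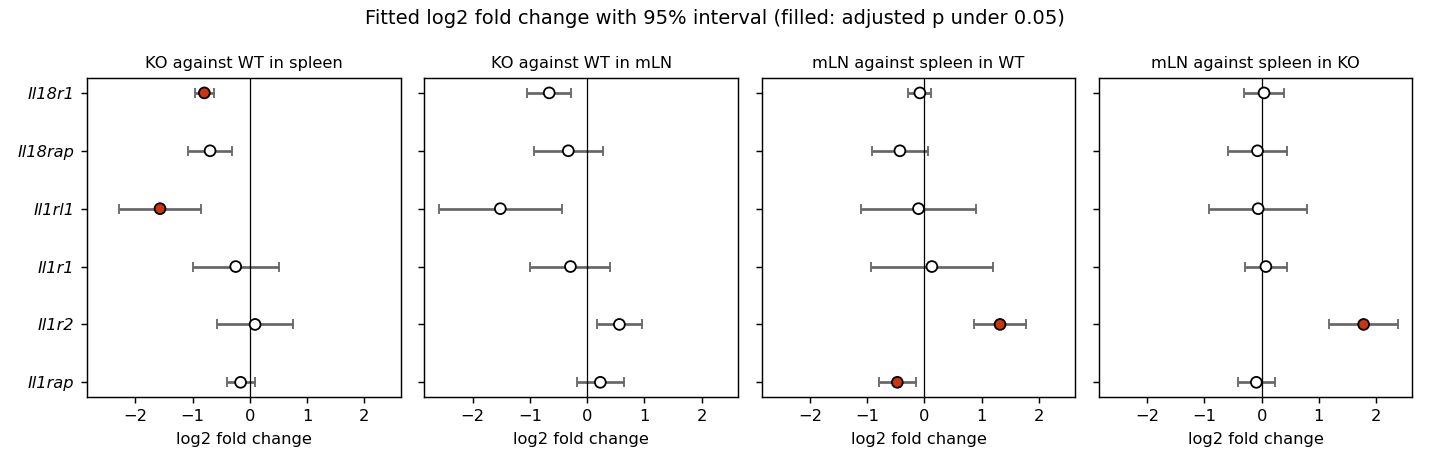
Log2 fold change of each receptor gene (x axis) with its 95% interval in the 4 comparisons, filled where the edgeR adjusted p was under 0.05. Il18r1 and Il1rl1 are filled for KO against WT in spleen (−0.79 and −1.57), none in mLN, Il1r2 for mLN against spleen in both genotypes (1.32 and 1.78) and Il1rap in WT (−0.47).

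The difference of the genotype effect between mLN and spleen was tested as an interaction over all 15 libraries. None of the 6 genes and 0% of the 15438 genes tested passed by edgeR. At an unadjusted p under 0.05, 652 of all genes and 0 of the 6 passed, and DESeq2 called 2 of all genes and 0 of the 6. The interaction estimates were 0.13 for Il18r1 (95% interval −0.30 to 0.57), 0.05 for Il1rl1 (−1.33 to 1.44) and 0.47 for Il1r2 (−0.35 to 1.29). The intervals were wide, so an equal effect in both organs was not shown. Beside the absence of edgeR calls in mLN, 3 of the 6 genes (Il18r1, Il1rl1 and Il1r2) had an unadjusted p under 0.05 there, and DESeq2 called 2 of them (Il18r1 and Il1r2).

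The comparison of mLN with spleen asks which receptors differ between the gut-draining nodes and a distant lymphoid organ. The decoy receptor Il1r2 was higher in mLN in both genotypes, 78.1 ± 22.5 (SD, n = 3) against 32.0 ± 5.48 CPM (n = 4) in WT and 116 ± 15.1 against 33.7 ± 17.8 CPM (n = 4 each) in KO. Il1rap was slightly lower in WT mLN. Il18r1, Il18rap, Il1rl1 and Il1r1 were not called between organs without a replicate block, with wide intervals for Il1rl1 and Il1r1. In WT, 2 of the 6 genes passed, beside 20.5% of 14515 genes tested, and in KO 1 of the 6, beside 25.3% of 14240 genes. As above, nothing is read from these counts.

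Each WT mLN library had more Il1r2 than each WT spleen library, with the lowest mLN value (52.2 CPM, replicate 1) above the highest spleen value (37.3 CPM). The log2 fold change was 1.32 (SE 0.202, 95% interval 0.87 to 1.78; edgeR adjusted p = 0.00261). In KO the lowest mLN library (97.5 CPM) also exceeded the highest spleen library (59.7 CPM, replicate 3), which itself stood apart from the other 3 KO spleen libraries (21.9 to 31.0 CPM). The KO log2 fold change was 1.78 (SE 0.276, 95% interval 1.18 to 2.39; edgeR adjusted p = 0.000834), and 2.22 without that library. Il1r2 was past the threshold in all 7 WT and all 8 KO fits that left out a library. All mLN libraries were higher than all spleen libraries for 13.3% of the genes tested in WT and for 13.3% in KO. Macrophages, monocytes and neutrophils, which can express Il1r2, were traced by 10 marker genes. These summed to 233 to 673 CPM in WT spleen and 197 to 627 CPM in KO spleen, against 105 to 261 CPM in WT mLN and 108 to 121 CPM in KO mLN. In WT the sums of spleen and mLN overlapped. KO spleen replicate 3 had both the highest Il1r2 and the highest such sum in its group (627 CPM), whereas WT spleen replicate 4 had the highest sum in its group (673 CPM) with the lowest Il1r2. The part of these cells in the Il1r2 difference between organs, and in the Il1r2 value of KO spleen replicate 3, was not tested.

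Il1rap had 17.2, 16.7 and 14.8 CPM in WT mLN, below all 4 WT spleen libraries (22.7, 20.8, 21.3 and 27.9 CPM). The share of all genes with every mLN library lower was not counted. The log2 fold change of Il1rap was −0.47 (SE 0.144, 95% interval −0.80 to −0.15; edgeR adjusted p = 0.0458), and it missed the threshold in each of the 7 fits that left out a library (adjusted p 0.0533 to 0.12). In KO the groups overlapped, with 16.8, 24.3, 19.8 and 16.0 CPM in mLN and 20.8, 20.7, 19.1 and 21.4 CPM in spleen (log2 fold change −0.09, 95% interval −0.41 to 0.23). For Il18rap in WT the log2 fold change was −0.43 (edgeR adjusted p = 0.194), and when libraries of the same replicate number were paired as a block it was −0.34 with an adjusted p of 0.0193. In KO it was −0.07 (95% interval −0.59 to 0.45). Il18r1 differed little between organs, with log2 fold changes of −0.08 in WT (95% interval −0.28 to 0.12) and 0.04 in KO (−0.30 to 0.39). For Il1rl1 they were −0.10 (95% interval −1.10 to 0.90) and −0.06 (−0.91 to 0.79), and for Il1r1 0.13 (−0.93 to 1.19) and 0.07 (−0.29 to 0.44).

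**Figure D3:**
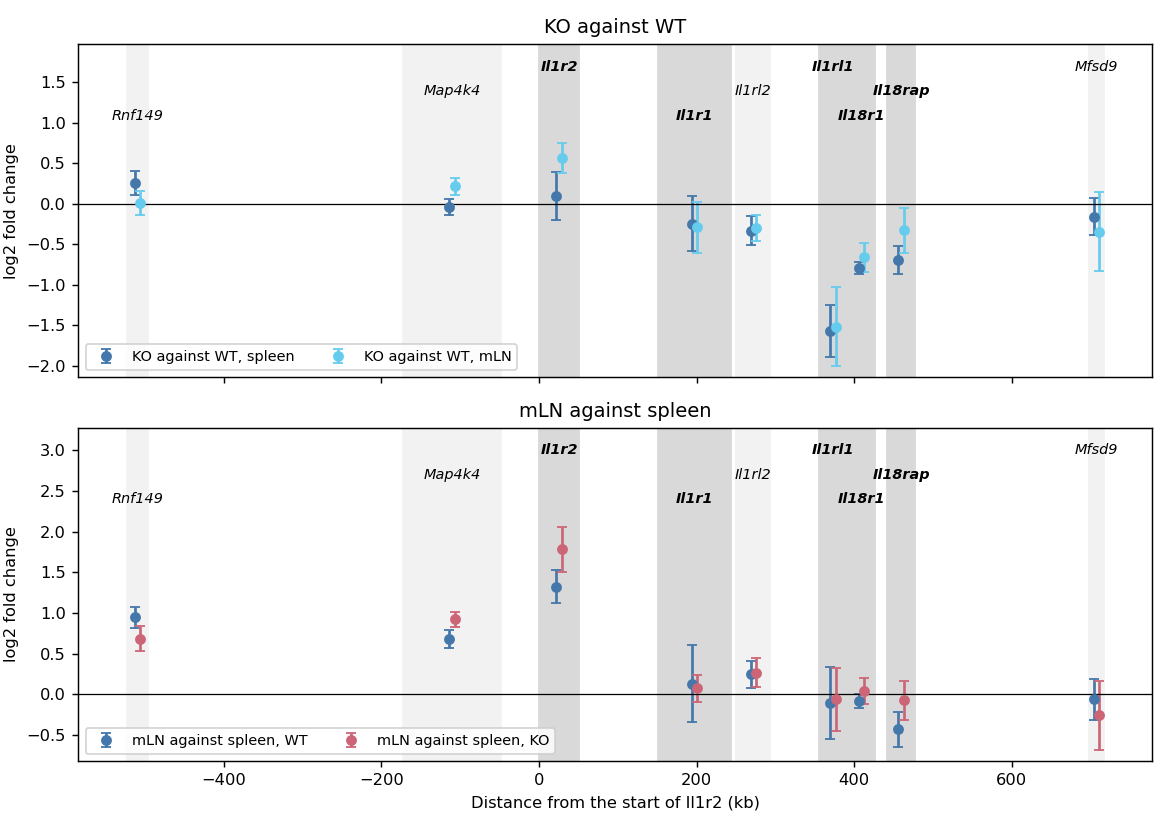
Log2 fold change with its standard error (y axes) for the tested protein-coding genes along the chromosome 1 cluster against the distance from the start of Il1r2 in kb, with the receptor genes in bold over dark bands. KO to WT values (top) are lowest at Il1rl1 and next lowest at Il18r1 in both organs, and mLN to spleen values (bottom) are high at Il1r2, Map4k4 and Rnf149.

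Along the cluster, the KO to WT values differed by position. In spleen they were 0.09 at Il1r2, −0.25 at Il1r1, −0.33 at Il1rl2 (the IL-36 receptor, between Il1r1 and Il1rl1; 37.9 to 88.4 CPM over all libraries), −1.57 at Il1rl1, −0.79 at Il18r1 and −0.69 at Il18rap. In mLN the same series was 0.56, −0.29, −0.30, −1.52, −0.66 and −0.33. The lowest values in both organs were thus those of Il1rl1 and of the adjoining Il18r1. Within 500 kb of the outer ends, 10 further protein-coding genes were annotated, Il1rl2 among them, of which 4 were tested. None of the 4 was called between genotypes in either organ by edgeR or DESeq2. Mfsd9, beyond Il18rap, had KO to WT values of −0.16 in spleen and −0.34 in mLN. Between organs, Map4k4 and Rnf149, on the Il1r2 side, were called higher in mLN in both genotypes, with edgeR log2 fold changes of 0.68 and 0.95 in WT (adjusted p = 0.00347 and 0.0017) and 0.92 and 0.68 in KO (3.89e-05 and 0.00769). Mfsd9, on the other side, had −0.06 and −0.26. The sodium-proton exchanger genes Slc9a4 and Slc9a2 next to Il18rap had at most 9 reads in any library.

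The replicates of a group varied more in most of these receptors than in other genes. The within-group SD of log2 CPM was 0.804 for Il1rl1, 0.604 for Il1r1, 0.433 for Il1r2, 0.417 for Il18rap and 0.224 for Il18r1. Among genes within 0.5 log2 units of the same mean level, the median SD was 0.182, 0.172, 0.154, 0.117 and 0.117 respectively, and between 91.4% and 99.5% of those genes varied less. Il1rap was the exception, with 0.178 beside a median of 0.223. The variation did not run in the same direction for all of these genes. WT replicate 4 was low in Il18rap and Il1rl1 and high in Il1r1 in both organs. Its deviations from the group mean were −0.51 and −0.44 for Il18rap, −0.93 and −0.97 for Il1rl1, and 0.88 and 0.91 for Il1r1 in spleen and mLN. Over the 15 libraries, as deviations from the group means, Il18rap and Il1r1 had a Pearson r of −0.60 (−0.77 to −0.49 with each library left out), Il18rap and Il1rl1 0.46, and Il1rl1 and Il1r1 −0.42. The 2 chains of the IL-18 receptor had an r of only 0.30 (−0.11 to 0.59 with each library left out).

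**Figure D4:**
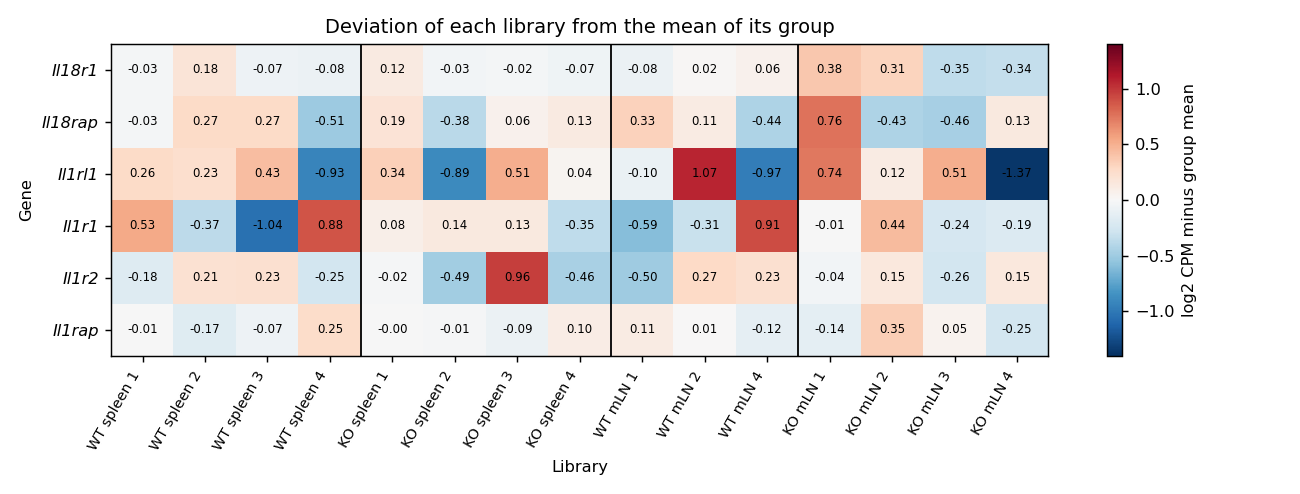
Deviation of log2 CPM from the group mean for each receptor gene (y axis) in each library (x axis), with the value printed in each cell (blue lower, red higher). WT replicate 4 is blue for Il18rap and Il1rl1 and red for Il1r1 in both organs, and the widest deviation is −1.37 for Il1rl1 in KO mLN replicate 4.

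For Il1r1 and Il18rap, deviations moved with those of some helper lineage genes. The 29 genes of 4 lists (Th1, Th17, Th2 and regulatory T cell genes) were set against each receptor over the same deviations. Il1r1 had an r above 0.7 with 5 of the 29 and below −0.7 with 4. The share of all genes past these limits was not counted, so nothing is read from these counts. Those above 0.7 were the Th17 genes Ahr (0.84), Ccr6 (0.83) and Il22 (0.75) and, from the Th2 list, Ccr4 (0.88) and Gata3 (0.77). Those below −0.7 were the Th1 genes Il12rb1 (−0.82), Ifng (−0.80), Il12rb2 (−0.78) and Tbx21 (−0.77). Other Th1 genes did not share this sign, with an r of 0.58 for Hlx, 0.42 for Stat4 and 0.10 for Runx3. Lower r also occurred in the Th17 list, with −0.02 for Rora and 0.35 for Il23r, and in the Th2 list, with 0.25 for Il4 and 0.02 for Ptgdr2. Il18rap had the opposite sign for several of these genes, with an r of 0.74 for Il12rb2 and 0.72 for Ifng and of −0.66 for Ccr6, and its highest r was that with Klrg1 (0.79). Its r was −0.68 for Runx3 and −0.22 for Hlx, against the sign of the other Th1 genes. Il18r1, Il1rl1, Il1r2 and Il1rap had no r past 0.7 in either direction. The libraries share their sorting and preparation, and some share a replicate number across organs, so these r describe the 15 libraries and carry no p. With each library left out, the r of Il1r1 with Ccr6 stayed between 0.77 and 0.96 and that of Il18rap with Ifng between 0.65 and 0.84.

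**Figure D5:**
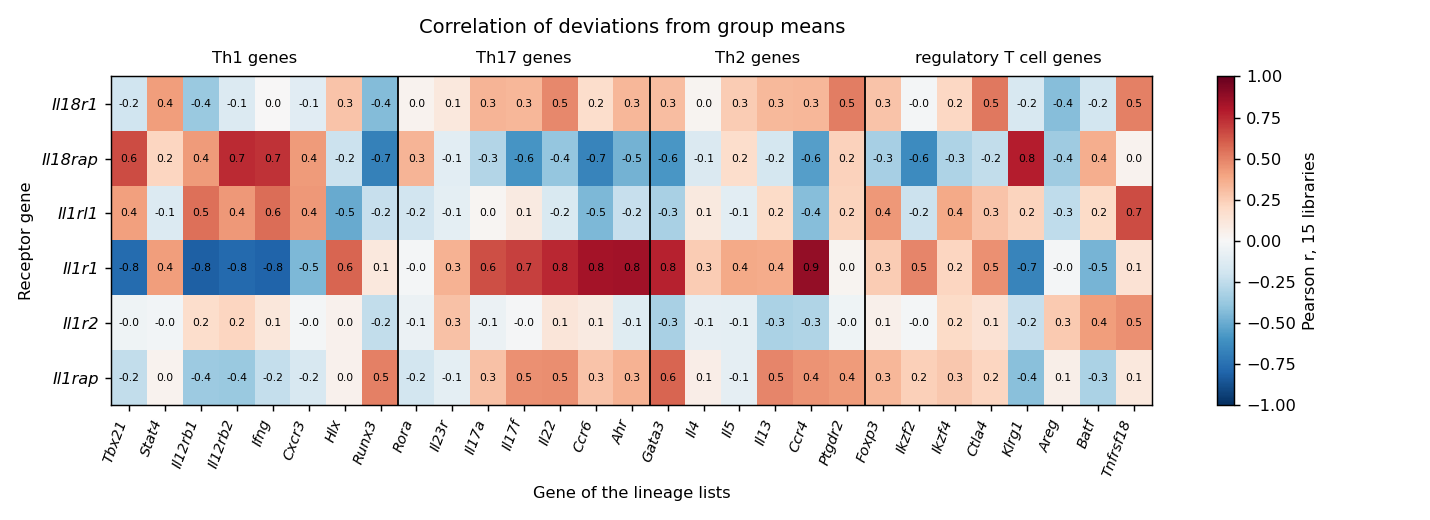
Pearson r, over 15 libraries, of deviations from group means between each receptor gene (y axis) and 29 helper lineage genes (x axis), red positive and blue negative. The Il1r1 row is red over most Th17 genes and blue over Tbx21, Il12rb1, Il12rb2 and Ifng, and the Il18rap row has the opposite sign at Il12rb2 (0.74), Ifng (0.72) and Ccr6 (−0.66).

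Among all genes, those most alike to each receptor in these deviations (n = 15 libraries) were Pcna for Il18rap (r = 0.94), the DNA sliding clamp of replicating cells, Mtss1 (0.93) and Tmem176a (0.92) for Il1r1, Mrps31 (0.94) and Mcam (0.92) for Il18r1, 2310033P09Rik (0.91) and Map1lc3a (0.89) for Il1rl1, and Dnttip2 (0.88) for Il1rap. For Il1r2 the highest was Gm36501 (0.82), which dropped to 0.47 without a single library.

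The ligands of these receptors were nearly silent in the sorted cells. Of 10 ligand genes, 1 to 3 passed the filter in any comparison. Il1a, Il1b and Il33 had means of at most 0.962 CPM in every group. Il18, which encodes the ligand of the IL-18 receptor, had 2.83 ± 1.03 CPM in KO and 1.14 ± 0.54 CPM in WT spleen (SD, n = 4 each; log2 fold change 1.31, edgeR adjusted p = 0.107). Il1rn, the soluble antagonist of Il1r1, was called higher in mLN in both genotypes, from 0.615 to 3.77 CPM in WT (edgeR log2 fold change 2.65, adjusted p = 0.0189) and from 0.62 to 2.4 CPM in KO (1.95, adjusted p = 0.036). Among the 5 other receptors and soluble inhibitors 3 were tested. Sigirr, an inhibitory receptor that dampens IL-1 family signals, had 140 ± 13.6 CPM in WT and 115 ± 2.24 CPM in KO spleen (log2 fold change −0.27, edgeR adjusted p = 0.07, DESeq2 adjusted p = 0.022). Its KO to WT log2 fold change in mLN was −0.29 (edgeR adjusted p = 0.221). Between organs, edgeR called Sigirr higher in mLN in both genotypes (0.50 and 0.46, adjusted p = 0.0091 and 0.0012). Il18bp, the secreted IL-18 trap, stayed at means of 16.5 to 17.9 CPM in all 4 groups.

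All 17 genes of the MyD88 pathway downstream of these receptors were tested. By edgeR none was called between KO and WT in either organ, beside 1.3% of all genes tested in spleen and 0.641% in mLN. An unadjusted p under 0.05 was reached by 7 in spleen and 7 in mLN, beside 2924 of 14254 and 2253 of 14359 over all genes. DESeq2 called 0 and 1 of the 17 genes. Their median log2 fold change was −0.10 in spleen and −0.22 in mLN, beside a median of 0.00 over all genes tested in each organ. The adaptor Myd88 had −0.24 in spleen and −0.22 in mLN (edgeR adjusted p = 0.115 and 0.301), and the largest change in mLN by p was that of Peli1, an E3 ligase of the IRAK complex (−0.46, edgeR adjusted p = 0.0778, DESeq2 adjusted p = 0.00375). Between organs 2 of the 17 were called in each genotype, both higher in mLN, beside 20.5% of all genes tested in WT and 25.3% in KO. Peli1 was one of them in both genotypes (0.66 in WT and 0.44 in KO, edgeR adjusted p = 0.00763 and 0.00267), with Irak1 in WT (0.45, adjusted p = 0.0227) and the ubiquitin-conjugating enzyme gene Ube2n in KO (0.38, adjusted p = 0.00996).

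Between genotypes, 8 Th1, 5 Th17, 5 Th2 and 7 regulatory T cell genes were tested in spleen, and 7, 7, 5 and 8 in mLN. Over all genes tested, edgeR called 1.3% in spleen and 0.641% in mLN. The lists were chosen with earlier results of these data known, so nothing is read from the counts of called genes. In spleen 1 gene of the 4 lists was called, Ctla4 of the regulatory T cell list, at 37.2 ± 4.82 CPM in KO and 64.5 ± 13.8 CPM in WT (SD, n = 4 each; log2 fold change −0.78, edgeR adjusted p = 0.0391). This call was lost in 6 of the 8 fits that left out a library (all but those without WT replicate 3 or 4). It was also lost with all 15 libraries in 1 fit and with the replicate block. DESeq2 called 4 genes of this list, with Foxp3, Ctla4 and Tnfrsf18 lower in KO and Klrg1 higher (edgeR log2 fold change 0.60). In mLN none was called by edgeR. An unadjusted p under 0.05 was reached there by 8 genes of these lists, beside 2253 of 14359 over all genes, and DESeq2 called 1, Ctla4. Tbx21, the Th1 master regulator, had log2 fold changes of 0.38 and 0.31 in spleen and mLN (edgeR adjusted p = 0.395 and 0.586). Of the 8 Th1 genes edgeR called 0 in spleen, beside 1.3% of all genes tested there. An unadjusted p under 0.05 was reached by 1 of them, beside 2924 of 14254 over all genes. DESeq2 called 1, Runx3, which was higher in KO. The part of Th1 cells in the Il18r1 difference was not tested. Between organs, edgeR called 20.5% of all genes tested in WT and 25.3% in KO. Il12rb1 was called lower in mLN in both genotypes (−0.98 and −0.95 in WT and KO, edgeR adjusted p = 0.0205 and 0.000721). In KO mLN, Tbx21 (−0.82), Ifng (−0.78) and Hlx (−2.41) were also called lower and Cxcr3 (0.44) higher. Of the 7 genes tested of the regulatory T cell list, 4 were called higher in mLN in WT (Foxp3, Ikzf4, Ctla4 and Tnfrsf18, log2 fold changes 0.73 to 1.57). In KO 4 of 7 were called higher (Ikzf4, Ctla4, Tnfrsf18 and Batf, 0.38 to 1.19), and Foxp3 was not (0.72, edgeR adjusted p = 0.227). The part of regulatory T cells in the Il1r2 difference between organs was not tested. Of the Th17 list Il22 was called higher in WT mLN (1.85, edgeR adjusted p = 0.0448) and Il23r lower in KO mLN (−0.97, adjusted p = 0.026), and of the Th2 list Ccr4 was called higher in KO mLN (0.67, adjusted p = 0.0446).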

How the data were processed

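The authors sorted T cells, prepared libraries with the NEBNext Single Cell/Low Input kit and sequenced single-end reads. The reads were aligned by the authors with STAR 2.6.1a to GRCm38 with GENCODE M23. Per the labels, the processing notes also name bcl2fastq 2.19.1.403, RSEM and DESeq2 1.22.2. The deposited values are whole-number counts of reads per gene, not normalized, in 1 column per library. A median of 60.9% of uniquely aligned reads was counted on no gene. Of 91 genes whose exons lie wholly within exons of a well-covered gene on the opposite strand, 88 had reads, at a median density of 0.826 of the outer gene, and of 175 on the same strand 0 had. The counts therefore behave as those of 1 strand of a library without strand information, so that antisense reads can fall on a gene.

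Symbols, coordinates and exon lengths were read from GENCODE M21, which uses this build too (55240 of 55421 genes), and promoter sequences from RefSeq (GRCm38.p6), where all 6 symbols matched. Each comparison was fitted over all genes kept by the filter of edgeR 4.0.16 (R 4.3.3) with TMM scaling and the quasi-likelihood test, and a gene was called at a Benjamini-Hochberg adjusted p under 0.05. SEs were taken as the absolute log2 fold change over the square root of F. Alternatives were DESeq2 1.42.0, RLE or no scaling, no filter, at least 10 counts per library, all 15 libraries in 1 fit, a replicate block, a log2 fold change limit of 1, and each library left out. Correlations used log2 CPM (TMM, prior count 2) minus group means, and a left-out library was dropped before centring. Those with the lineage lists were added after seeing the data. The steps were tested on simulated counts. The limit for a count of 0 was set at 3 reads in a library (0.266 to 0.32 CPM), which covers counting error only.

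The 6 genes and all lists were chosen with earlier results of these data known. Named are the 6 genes, Prkaa1, the called genes of each list (at most 6) or else those with the highest levels, the genes nearest along chromosome 1 (500 kb) and the 3 most alike genes of each receptor. Of the Th17 list, 1 gene is not reported here. Other genes, among them Il18, Il1a, Il1b, Il33, Sigirr, Foxp3, Tbx21 and Myd88, were named after seeing their values. Replicate numbers are those of the labels. Deviations from group means of same-numbered WT spleen and mLN libraries correlated across genes in all 3 pairs (r = 0.243 to 0.291, beside −0.198 to 0.032 for other pairs). Such a separation did not hold for KO (0.0258 to 0.259) or between genotypes (−0.21 to 0.146). The reported comparisons between organs nevertheless left the replicate number out. It entered only in the alternative with a replicate block.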

Additional observations from a re-analysis of the deposited data

Results flagged for a closer look

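In 18 groups of 4 libraries (6 genes in 3 groups), a library was set apart where its gap to the nearest other library exceeded 0.829 of the range of its group. Chance alone marks about 1 in 20 groups, and 2 were marked. Il1rl1 in WT spleen replicate 4 had 34.1 CPM beside 76.3 to 84.6 CPM in the other 3 libraries, with a gap of 0.836 of the range. The same replicate number was also the lowest of the WT mLN libraries for Il1rl1 (26.4 CPM). Il1r1 in KO spleen replicate 4 had 28.4 CPM beside 40.0 to 41.8 CPM, with a gap of 0.864 of the range.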

How the results depend on the processing

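Il1r2 in mLN of both genotypes kept its direction and stayed past the threshold under every alternative run, and Il18r1 in KO spleen did so except under the fold change limit, which its −0.79 does not reach. Among KO to WT calls in spleen, 2 of the 6 genes became 1 with all 15 libraries in 1 fit, with the replicate block and with the fold change limit, 3 with DESeq2 and without a filter, and 1 to 3 with a library left out (3 without WT replicate 4, else 1). In mLN, 0 became 2 with DESeq2, 1 with all 15 libraries in 1 fit and 3 without a filter. Between organs in WT, 2 became 1 with the fold change limit and 1 with any library left out. The causes were not tested. Over all genes, calls between genotypes ran from 17 to 1422 in spleen (185 as reported) and from 1 to 913 in mLN (92), the lowest with the replicate block and the highest without a filter, and with a library left out from 12 (KO replicate 2) to 324 (WT replicate 3) in spleen, where each of the 8 moved the count over 1.5 times, and from 4 (KO replicate 3 or WT replicate 4) to 117 in mLN, where all but KO and WT replicate 1 did so. Calls between organs fell to 723 (2980) in WT and 763 (3602) in KO under the fold change limit, and to 1816 in WT without spleen replicate 1. For the interaction they ran from 0 to 112, the highest without a filter.

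Under the replicate block, the log2 fold change turned to −0.0109 for Il1r2 between genotypes in spleen, to −0.18 for Il1r1 between organs in WT, and to −0.00855 for Il1rl1 and 0.26 for Il1r1 in the interaction. Apart from Il18rap in WT, which gained a call, and Il1rl1 in KO spleen, which lost it (adjusted p = 0.101), the block changed no call of the 6 genes. The WT organ pairs are the only ones that the data tie together. With a library left out, signs turned between genotypes for Il1r1 (−0.50 to 0.0926 in spleen, −0.56 to 0.31 in mLN) and Il1r2 (−0.34 to 0.25 in spleen). Between organs in WT they turned for Il1rl1 (−0.82 to 0.26) and Il1r1 (−0.48 to 0.47), and in KO for Il18r1 (−0.0809 to 0.16), Il18rap (−0.38 to 0.0755), Il1rl1 (−0.30 to 0.24) and Il1r1 (−0.0921 to 0.16). In the interaction they turned for Il18r1 (−0.0051 to 0.24), Il1rl1 (−0.31 to 0.77) and Il1r1 (−0.38 to 0.56). None of these values was called. Library totals differ little, and the lowest count of any of the 6 genes was 82 reads (Il1rl1 in KO mLN replicate 4).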
